A study of Mus musculus with 12 samples.

Results

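Resident biliary epithelial cells were compared with Cd24-positive, Epcam-negative cells that descend from hepatocytes, all sorted from injured mouse livers and measured by bulk RNA sequencing. The comparison takes 6 of the series' 12 libraries: 3 of BEC (biliary epithelial cells sorted as EGFP-negative and Epcam-positive) and 3 of the intermediate group (sorted as EGFP-positive, Cd24-positive and Epcam-negative). Members were chosen by these sort labels alone. It asks which functions of a bile duct cell the intermediate cells already share with resident duct cells and which they lack. The other 6 libraries are EGFP-positive cells with neither surface marker (early) or with both (full). They entered the fit and are shown in the plots for orientation.

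All 4 groups came from wild-type mice that carried the same treatment. The mice received AAV8-TBG-Cre, a virus in which the hepatocyte promoter TBG drives Cre recombinase, so that EGFP marks hepatocytes and their descendants. From 1 week later they ate a diet with 0.1% DDC, a porphyrinogenic compound that injures bile ducts, for 8 weeks. BEC therefore are not healthy duct cells, since their mice ate the same diet. The labels do not say whether the groups came from the same livers. A duct cell with EGFP would be absent from the BEC sort, and an unlabelled hepatocyte from the intermediate sort. An unlabelled descendant of a hepatocyte that carried Epcam would fall in the BEC sort. The labels do not say whether the 3 replicates of a group came from separate mice, so p-values measure only the spread between these samples.

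Hepatocytes and biliary epithelial cells (cholangiocytes) share an embryonic precursor, the hepatoblast. Cholangiocytes form a polarised tube: they seal it with tight junctions, add chloride, bicarbonate and water to bile in response to secretin, take back bile acids and glucose, sense flow with a primary cilium, and rest on a laminin-rich basement membrane. Under chronic bile duct injury in mice, hepatocytes can switch on ductal genes, a process driven by Notch and YAP signalling, and Sox9 and Spp1 are among the genes that appear early.

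Total counts ranged from 15112893 to 17346468 in the intermediate and from 17346269 to 18201429 in the BEC libraries. The mitochondrial share of counts was between 3.99% and 4.75% in intermediate and between 2.58% and 3.43% in BEC libraries. The 50 most abundant genes held 20.9% to 21.6% of counts in intermediate and 14.9% to 16.7% in BEC libraries. Replicates within the intermediate and within the BEC group correlated with Pearson's r of at least 0.9796 across genes (log2 CPM). Levels are given as CPM, which are counts relative to the TMM-scaled library size. They are not divided by gene length and cannot be compared between genes.

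The sort markers followed the gates. Epcam was at 26.6, 17.4 and 12.4 CPM in the intermediate libraries and 845, 906 and 843 CPM in the BEC libraries. Cd24a, which was not used to sort BEC, was at 509, 460.5 and 361 CPM in the intermediate libraries and 1298, 1001 and 917 CPM in the BEC libraries. Intermediate libraries thus held 2.17% of the BEC level of Epcam transcript and 41.4% of that of Cd24a. Both genes enter the counts of adhesion genes and of all biliary genes below as descriptions only.

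Across the transcriptome the groups were far apart in some genes and close in many. Of 16210 genes tested, 8503 (52.5%) passed edgeR's quasi-likelihood test at a Benjamini-Hochberg adjusted p under 0.05. BEC was higher in 4258 (26.3%) and lower in 4245 (26.2%). A p that misses the threshold does not show likeness, so likeness was read from the 95% interval of the log2 fold change (BEC minus intermediate, positive where BEC is higher). The whole interval lay within 2-fold for 8157 genes (50.3%), of which 3002 were also called. It lay beyond 2-fold for 1794 genes higher in BEC (11.1%) and 1256 lower in BEC (7.75%). Scaled by total counts alone, 66.5% of calls were higher in BEC against 50.1% with TMM factors. That scaling shifted the median gene to a log2 fold change of 0.20, from 0.00063. The directions below are relative to the TMM scale. In bulk samples, fewer cells that express a gene and less RNA per cell cannot be told apart.

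The split differed from function to function. Genes were grouped in 12 lists of biliary functions, 1 list of cell cycle genes and 4 lists of hepatocyte functions. Over the 316 biliary genes tested, of 341 listed, 202 were higher in BEC (63.9%, against 26.3% of all genes), 51 lower (16.1%, against 26.2% of all genes) and 63 not called, with a median log2 fold change of 0.84. A further 24 were under the filter on low counts and 1 was not analysed here. Of those tested, 91 (28.8%, against 50.3% of all genes) lay within 2-fold and 108 (34.2%, against 11.1% of all genes) were more than 2-fold higher in BEC. Over the 122 hepatocyte genes tested, of 124 listed, 115 were lower in BEC (94.3%, against 26.2% of all genes) and 4 higher (3.28%, against 26.3% of all genes), with a median of -2.95. The lists were not tested as sets, and a count of members that passed the filter on low counts is not a count of all members.

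**Figure D1:**
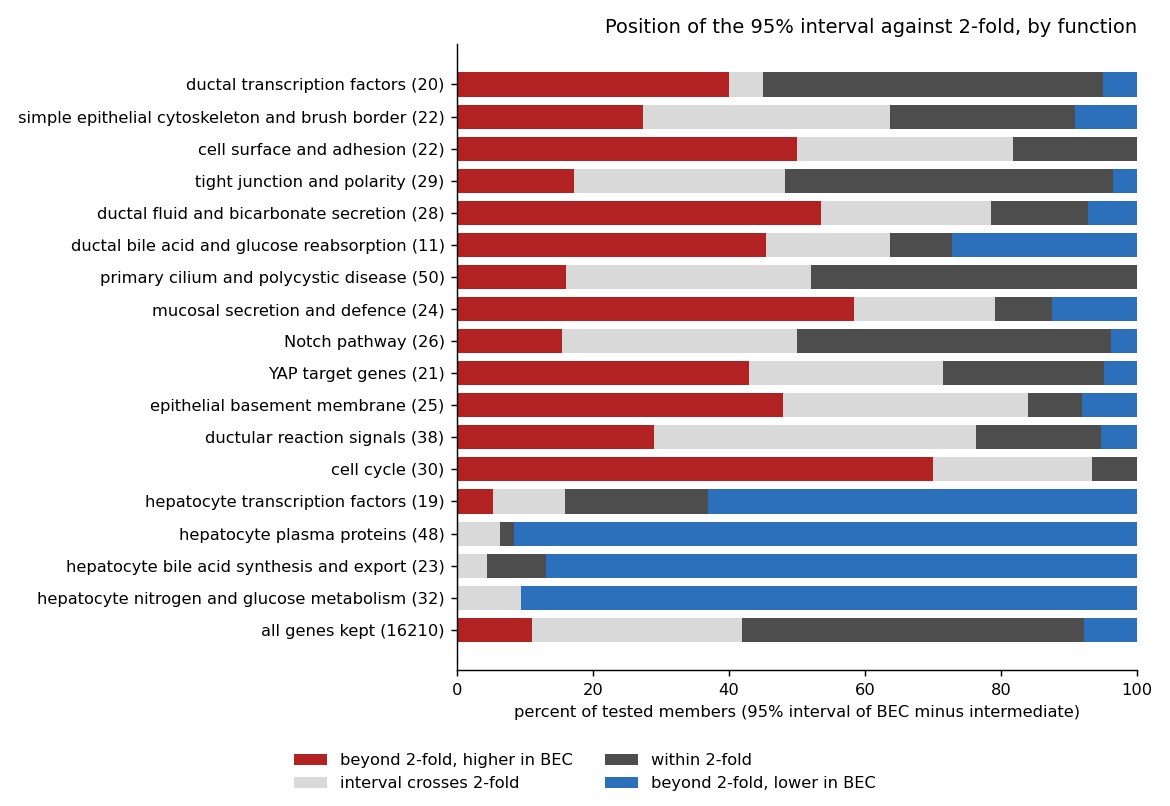
Share of the tested members of each list (number in brackets) by the position of the 95% interval of the log2 fold change, BEC minus intermediate, against 2-fold. Ductal transcription factors, tight junction, cilium and Notch genes had 10 of 20, 14 of 29, 24 of 50 and 12 of 26 members within 2-fold, against 50.3% of all genes, while secretion genes had 53.6% and mucosal genes 58.3% of members more than 2-fold higher in BEC, against 11.1%.

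**Figure D2:**
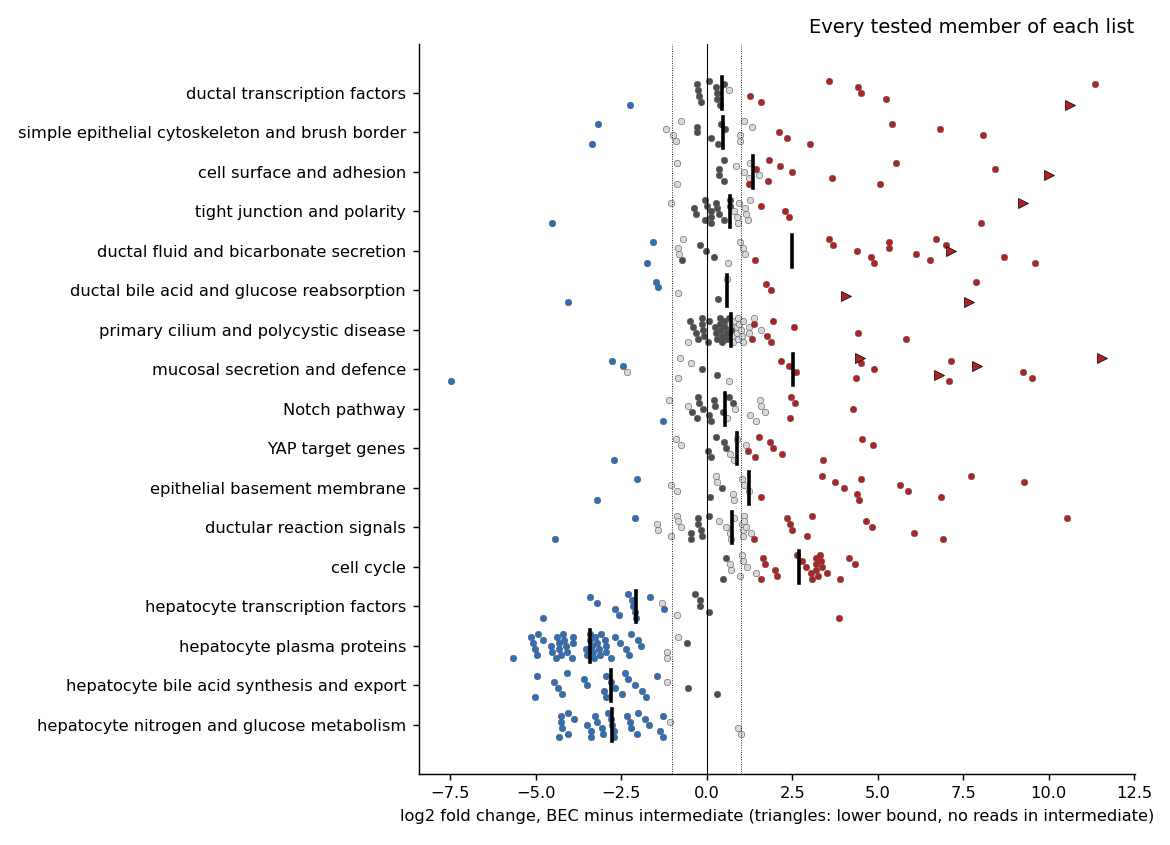
Log2 fold change of every tested member of each list, 1 point per gene coloured as in the plot of shares by function, with the list median as a bar, the 2-fold limits as dotted lines and triangles for genes without reads in the intermediate libraries, placed at their lower bound. Over the biliary lists 202 of 316 genes were called higher and lie right of 0, while 51 were called lower, 18 of them by more than 2-fold, and lie left. Over the hepatocyte lists 115 of 122 genes were called lower and lie left of 0.

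Several ductal transcription factors were close to their BEC level in intermediate cells and others were nearly absent. Of 20 tested, 10 (50%, against 50.3% of all genes) lay within 2-fold of BEC, among them Sox9, Sox4 and Onecut1, and 8 (40.0%, against 11.1% of all genes) were more than 2-fold higher in BEC, among them Grhl2, Esrp1, Klf5 and Ehf. A total of 11 were called higher (55%, against 26.3% of all genes) and 1 lower (5%, against 26.2%). The median log2 fold change was 0.46.

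Sox9, the factor that marks the ductal plate and the duct lineage, was at 281, 352 and 300.4 CPM in the intermediate libraries and 319, 422 and 421 CPM in the BEC libraries. The ranges overlapped, and the difference was not called (log2 fold change 0.32, 95% interval -0.031 to 0.66, adjusted p 0.119). It was called higher in BEC without BEC replicate 1 (adjusted p 0.0439) and with total counts only (0.0170). So it was with a term for the replicate number (a replicate block, adjusted p 0.0219). Sox4, which acts with Sox9 in duct development, was at 661, 569 and 779 CPM in the intermediate libraries and 503, 526 and 633 CPM in the BEC libraries. The ranges overlapped here too (log2 fold change -0.27, 95% interval -0.71 to 0.16, adjusted p 0.28). Onecut1 (HNF6), a factor of bile duct development, was at 78.3 ± 13.5 CPM in intermediate and 94.3 ± 9.28 CPM in BEC cells (SD, n = 3, as for every ± here), within 2-fold (log2 fold change 0.27, 95% interval -0.30 to 0.83, adjusted p 0.419). In the early group, Sox9 stood at 43.3 CPM and Sox4 at 45.5 CPM.

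Grhl2, a factor that maintains epithelial junctions and lumen size, was nearly absent from intermediate cells. It was at 0.0628, 0 and 0 CPM in the intermediate libraries and 71.9, 65.1 and 69.0 CPM in the BEC libraries, 1 read in all, a BEC to intermediate ratio of 3561 with a 95% counting interval of 639 to 140682. Esrp1, an epithelial splicing regulator grouped with these factors, had 0 reads in the intermediate libraries and 98.6, 87.9 and 89.1 CPM in BEC, at least 1587-fold higher. Klf5, a zinc finger factor of simple epithelia, was at 7.03, 1.70 and 2.04 CPM in the intermediate libraries and 118, 133 and 151 CPM in the BEC libraries. Intermediate replicate 1 was highest of its group and still far below every BEC library (log2 fold change 5.25, or 6.16 without intermediate replicate 1, SE 0.35, adjusted p 4.86e-08). Ehf, an ETS factor of glandular epithelia, was at 35.7, 16.1 and 13.2 CPM in the intermediate libraries and 491, 482 and 508 CPM in the BEC libraries (log2 fold change 4.51, SE 0.35, adjusted p 4.94e-07). Its relative Elf3 differed less, at 29.6 ± 6.995 CPM in intermediate and 89.8 ± 17.4 CPM in BEC cells (log2 fold change 1.60, SE 0.18, adjusted p 6.01e-06). The epithelial repressors Ovol1 and Ovol2 were low in both groups and higher in BEC (log2 fold changes 3.58 (5.34 without intermediate replicate 3) and 4.43). Zeb1, a repressor of epithelial genes, was the list's 1 member lower in BEC, at 45.2 ± 3.05 CPM in intermediate and 9.51 ± 0.938 CPM in BEC cells (log2 fold change -2.25, SE 0.12, adjusted p 4.49e-09).

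**Figure D3:**
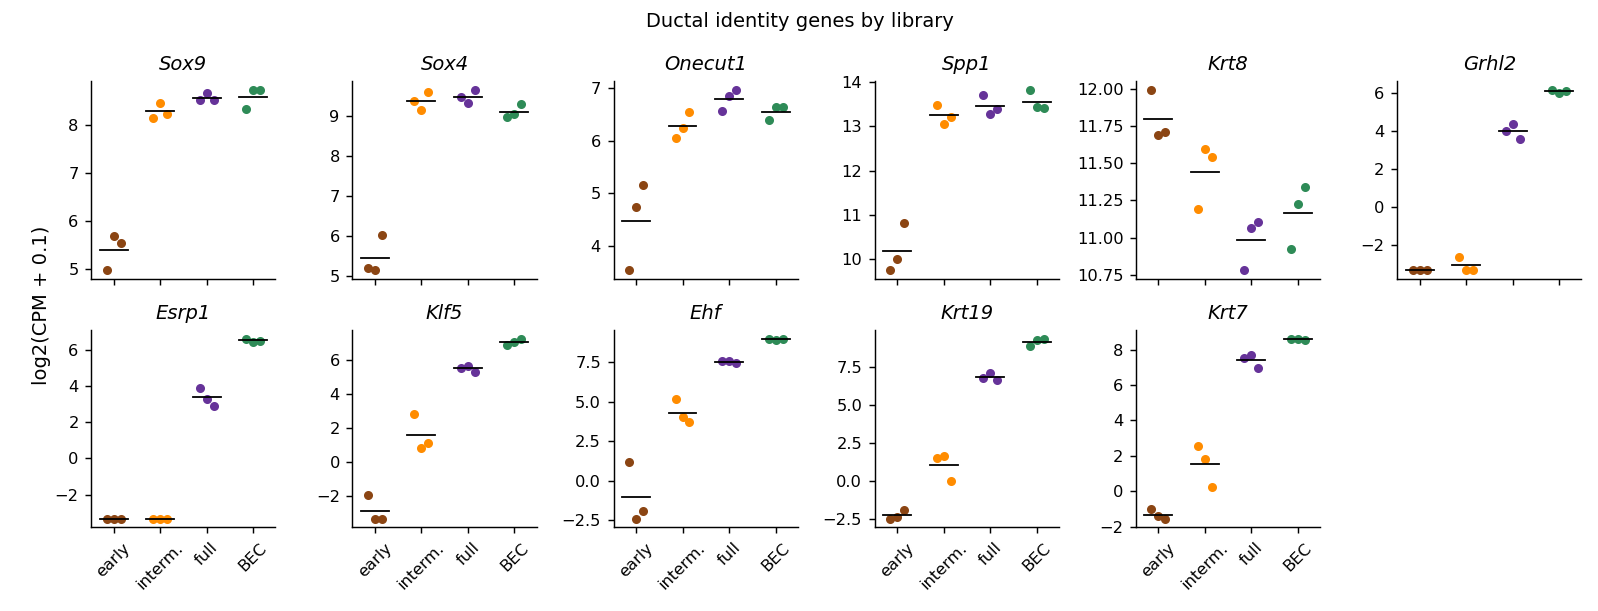
Levels of 11 ductal identity genes in every library of the 4 groups, as log2(CPM + 0.1), with the group mean as a line; each panel has its own scale. Intermediate and BEC points lie close for Sox9, Sox4, Onecut1, Spp1 and Krt8, and far apart for Grhl2, Esrp1, Klf5, Ehf, Krt19 and Krt7.

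Keratins showed the same division. Krt8 and Krt18, the pair that hepatocytes and duct cells both make, were within 2-fold: Krt8 was at 2342, 3093 and 2983 CPM in the intermediate libraries and 1942, 2398 and 2593 CPM in the BEC libraries (log2 fold change -0.28, 95% interval -0.61 to 0.048, adjusted p 0.142). Krt18 was at 1665 ± 163 CPM in intermediate and 1373 ± 171 CPM in BEC cells (log2 fold change -0.28, 95% interval -0.55 to -0.0086, adjusted p 0.0785). Krt18 was called lower in BEC without intermediate replicate 1 (adjusted p 0.0448) and with a replicate block (0.0242). Krt19, the keratin by which bile ducts are recognised, was at 2.76, 2.96 and 0.905 CPM in the intermediate libraries and 474, 629 and 673 CPM in the BEC libraries. No intermediate library reached 3 CPM (log2 fold change 8.07, SE 0.28, adjusted p 2.53e-10), and the group held 0.373% of the BEC level. Krt7, the other duct keratin, was at 5.84, 3.39 and 1.07 CPM in the intermediate libraries and 396, 392 and 373 CPM in the BEC libraries. Intermediate replicate 1 was again highest of its group (log2 fold change 6.83, or 7.42 without intermediate replicate 1, SE 0.34, adjusted p 4.97e-09). Krt20 was lower in BEC, at 11.6 ± 2.32 CPM in intermediate and 1.13 ± 0.408 CPM in BEC cells (log2 fold change -3.35, SE 0.52, adjusted p 9.67e-05).

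Of the 22 genes of the cytoskeleton and brush border, 12 were higher in BEC (54.5%, against 26.3% of all genes), 6 were lower (27.3%, against 26.2% of all genes) and 6 lay within 2-fold (27.3%, against 50.3% of all genes). The median was 0.48. Ezr, ezrin, which ties the apical membrane to actin, was at 104 ± 7.16 CPM in intermediate and 528 ± 21.6 CPM in BEC cells (log2 fold change 2.35, SE 0.12, adjusted p 5.54e-09). Vil1, which bundles actin in microvilli, was at 17.0 ± 1.76 CPM in intermediate and 73.5 ± 7.65 CPM in BEC cells (log2 fold change 2.11, SE 0.15, adjusted p 9.07e-08), and Eps8, a regulator of microvillus length, at 0.727 ± 0.396 CPM in intermediate and 30.6 ± 5.17 CPM in BEC cells (log2 fold change 5.40, SE 0.39, adjusted p 2.64e-08). The unconventional myosin Myo7b and the brush border protocadherin Cdhr5 were lower in BEC, with log2 fold changes of -3.19 and -0.90. Desmoplakin (Dsp) stayed within 2-fold, at 551 ± 53.1 CPM in intermediate and 597 ± 33.1 CPM in BEC cells (log2 fold change 0.12, 95% interval -0.13 to 0.36, adjusted p 0.418).

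Adhesion and surface genes were mostly higher in BEC. Of 22 tested, 19 were higher (86.4%, against 26.3% of all genes) and 2 lower (9.09%, against 26.2% of all genes), with a median of 1.35, and 11 were more than 2-fold higher (11.1% of all genes were). These counts include the sort markers Epcam and Cd24a, both higher in BEC. The direction of Epcam was set by the gates, and it is among the 11. Itgb6, which forms the TGF-beta-activating integrin alpha-v beta-6, was at 0.126, 0.657 and 0.170 CPM in the intermediate libraries and 132, 102 and 108 CPM in the BEC libraries (log2 fold change 8.42, or 9.52 without intermediate replicate 2, SE 0.54, adjusted p 7.74e-10). Itgb4, the laminin receptor subunit of hemidesmosomes, was at 13.6, 6.79 and 5.43 CPM in the intermediate libraries and 276, 293 and 285 CPM in the BEC libraries (log2 fold change 5.06, SE 0.25, adjusted p 6.24e-09). Its partner Itga6 differed less, with 54.6 ± 4.29 CPM in intermediate and 99.5 ± 7.58 CPM in BEC cells (log2 fold change 0.87, SE 0.089, adjusted p 2.25e-06).

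Cdh1, E-cadherin, was expressed in both groups at 633 ± 28.5 CPM in intermediate and 1501 ± 69.1 CPM in BEC cells (log2 fold change 1.25, SE 0.10, adjusted p 1.32e-07). Prom1 (CD133), a progenitor and duct marker, was at 31.7 ± 8.70 CPM in intermediate and 400.3 ± 33.6 CPM in BEC cells (log2 fold change 3.66, SE 0.17, adjusted p 3.35e-09), and Cd44, the hyaluronan receptor, at 255 ± 99.0 CPM in intermediate and 879 ± 93.1 CPM in BEC cells (log2 fold change 1.78, SE 0.28, adjusted p 0.000145). The collagen receptor Ddr1, the laminin receptor subunit Itga3 and the proteoglycan Sdc4 were 3 of the 4 within 2-fold, with intermediate cells at 70.6%, 70.2% and 77.6% of the BEC level. Sdc1, a syndecan typical of hepatocytes, was lower in BEC (log2 fold change -0.87, adjusted p 4.83e-05).

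Tight junction and polarity genes lay within 2-fold about as often as all genes did. Of 29 tested, 14 (48.3%, against 50.3% of all genes) lay within 2-fold, 18 were called higher in BEC (62.1%, against 26.3% of all genes) and 4 lower (13.8%, against 26.2% of all genes), and 5 were more than 2-fold higher (17.2%, against 11.1% of all genes), with a median of 0.69. Cldn3, a claudin of both liver epithelia, was at 271, 299 and 275 CPM in the intermediate libraries and 273, 310.1 and 339 CPM in the BEC libraries. The ranges overlapped (log2 fold change 0.13, 95% interval -0.10 to 0.36, adjusted p 0.348). The scaffold genes Tjp1, Ocln and Cgnl1 were all within 2-fold, with log2 fold changes of 0.31, 0.13 and 0.012, and the call for Tjp1 was lost without BEC replicate 1, BEC replicate 2 or intermediate replicate 1 (adjusted p 0.0537 to 0.0925). Cldn2, a pore-forming claudin, was within 2-fold though higher in BEC (355 ± 48.9 CPM in intermediate and 573 ± 49.8 CPM in BEC cells, log2 fold change 0.69, 95% interval 0.44 to 0.94, adjusted p 0.000184).

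The junction genes more than 2-fold higher in BEC included several claudins and an apical trafficking gene. Cldn8 had 0 reads in the intermediate libraries and 36.2, 31.0 and 38.8 CPM in BEC, at least 612-fold higher. Rab25, a small GTPase of apical recycling in epithelia, was at 0.251, 0.219 and 0.0565 CPM in the intermediate libraries and 45.8, 43.6 and 51.6 CPM in the BEC libraries (log2 fold change 8.03, SE 0.54, adjusted p 6.09e-10). Cldn4 was at 108, 148 and 82.8 CPM in the intermediate libraries and 475, 638 and 679 CPM in the BEC libraries (log2 fold change 2.40, SE 0.28, adjusted p 1.15e-05), and Cldn7 at 59.8, 64.4 and 53.5 CPM in the intermediate libraries and 162, 182 and 187 CPM in the BEC libraries (log2 fold change 1.58, SE 0.10, adjusted p 1.76e-08). For both, all BEC libraries lay above all intermediate ones. Cldn1, the claudin of the hepatocyte bile canaliculus, was lower in BEC: it was at 30.6, 32.0 and 38.1 CPM in the intermediate libraries and 1.30, 1.40 and 1.64 CPM in the BEC libraries (log2 fold change -4.53, SE 0.22, adjusted p 1.07e-09). The early group stood at 123 CPM of Cldn1.

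Fluid and bicarbonate secretion had one of the largest median differences of the biliary lists. Of 28 tested genes (33 listed), 19 were higher in BEC (67.9%, against 26.3% of all genes) and 5 lower (17.9%, against 26.2% of all genes), and 15 were more than 2-fold higher (53.6%, against 11.1% of all genes), with a median log2 fold change of 2.50. The 4 within 2-fold (14.3%, against 50.3% of all genes) were Slc4a2, Slc4a4, Itpr1 and Itpr2.

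The secretin receptor and its target channel were lower in intermediate cells at the transcript level. Sctr, the receptor, was at 16.0, 5.31 and 3.68 CPM in the intermediate libraries and 126, 98.3 and 97.6 CPM in the BEC libraries. Intermediate replicate 1 was highest of its group, and every BEC library lay far above it (log2 fold change 3.70, or 4.57 without intermediate replicate 1, SE 0.37, adjusted p 3.04e-06). Cftr, the cAMP-gated chloride channel that secretin opens, was at 16.1, 13.4 and 6.28 CPM in the intermediate libraries and 267, 258 and 229 CPM in the BEC libraries (log2 fold change 4.40, SE 0.25, adjusted p 1.42e-08), and intermediate cells held 4.75% of the BEC level. In the early group Cftr was at 0.0566 CPM. Adenylyl cyclase Adcy6 was closer, at 99.4 ± 10.8 CPM in intermediate and 209.5 ± 29.1 CPM in BEC cells (log2 fold change 1.08, SE 0.13, adjusted p 7.71e-06), while Adcy8, another cyclase, had 1 read in the intermediate libraries and 2.07, 3.12 and 2.97 CPM in BEC, a ratio of 141 with a 95% counting interval of 25.1 to 5619.

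The calcium-driven arm was split. Ano1 (TMEM16A), the calcium-gated chloride channel, was at 1.005, 0.547 and 0.905 CPM in the intermediate libraries and 365, 319.6 and 328 CPM in the BEC libraries (log2 fold change 8.69, SE 0.28, adjusted p 2.38e-11). P2ry2, the receptor for ATP in bile, was at 5.21 ± 1.69 CPM in intermediate and 61.9 ± 5.55 CPM in BEC cells (log2 fold change 3.58, SE 0.22, adjusted p 2.12e-08). Its level in the early group was 31.5 CPM, so the intermediate mean was the lowest of the 4 groups. Itpr3, the apical calcium release channel of cholangiocytes, differed by a log2 fold change of 1.13 (119 ± 9.74 CPM in intermediate and 260.5 ± 2.68 CPM in BEC cells, adjusted p 1.64e-07), while Itpr2, an isoform of both liver epithelia, lay within 2-fold (log2 fold change -0.016, 95% interval -0.23 to 0.20, adjusted p 0.91).

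Several genes of potassium exit and salt loading were far lower in intermediate cells. Kcnq1 was at 0.126, 0.109 and 0.339 CPM in the intermediate libraries and 155, 145 and 165 CPM in the BEC libraries (log2 fold change 9.60, or 10.29 without intermediate replicate 3, SE 0.46, adjusted p 2.23e-11). Kcnn4, the calcium-gated channel that sustains chloride exit, was at 2.45, 1.53 and 0.622 CPM in the intermediate libraries and 134, 137 and 151 CPM in the BEC libraries (log2 fold change 6.53, SE 0.30, adjusted p 7.74e-10). For neither channel gene did any intermediate library come near a BEC library. Kcne3, a potassium channel subunit, was at 3.51 ± 1.93 CPM in intermediate and 139 ± 4.59 CPM in BEC cells. Fxyd3, a regulator of the sodium pump, was at 0.704 ± 0.189 CPM in intermediate and 92.6 ± 1.42 CPM in BEC cells. Slc12a2 (NKCC1), which loads chloride across the basolateral membrane, was at 16.1, 13.4 and 14.6 CPM in the intermediate libraries and 489.8, 418 and 390.0 CPM in the BEC libraries (log2 fold change 4.88, SE 0.16, adjusted p 2.60e-10). Carbonic anhydrase Car2, which makes bicarbonate, was at 5.90, 4.21 and 5.60 CPM in the intermediate libraries and 243, 187 and 196 CPM in the BEC libraries (log2 fold change 5.32, SE 0.22, adjusted p 1.04e-09). The water channel Aqp5 had 0 reads in intermediate and 5.34, 6.93 and 12.2 CPM in BEC, at least 142-fold higher, whereas Aqp1 was low in both, at 2.26, 6.40 and 6.39 CPM in the intermediate libraries and 2.17, 2.89 and 3.38 CPM in the BEC libraries, with overlapping ranges (log2 fold change -0.84, 95% interval -1.67 to -0.011, adjusted p 0.0836). Aqp1 was called lower in BEC without intermediate replicate 1 (log2 fold change -1.19, adjusted p 0.00788) and with a replicate block (-0.77, adjusted p 0.0163).

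By contrast, the bicarbonate transporters that both liver epithelia carry were present. Slc4a2 (AE2), the chloride-bicarbonate exchanger that puts bicarbonate into bile, was at 99.97, 103 and 99.0 CPM in the intermediate libraries and 111, 122 and 119 CPM in the BEC libraries. Intermediate cells held 85.8% of the BEC level (log2 fold change 0.22, 95% interval 0.036 to 0.41, adjusted p 0.0439), a small difference whose call was lost without BEC replicate 2, BEC replicate 3, intermediate replicate 1, intermediate replicate 2 or intermediate replicate 3 (adjusted p 0.0779 to 0.148). Slc4a4, the sodium-bicarbonate cotransporter, was lower in BEC yet within 2-fold (487 ± 32.2 CPM in intermediate and 293 ± 21.9 CPM in BEC cells, log2 fold change -0.73, 95% interval -0.98 to -0.49, adjusted p 0.000114). The somatostatin receptor gene Sstr2, the muscarinic receptor gene Chrm3 and the ATP-gated channel gene P2rx4 were lower in BEC, with log2 fold changes of -1.73, -0.80 and -1.57 (adjusted p 1.29e-05, 0.000202 and 1.28e-07).

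**Figure D4:**
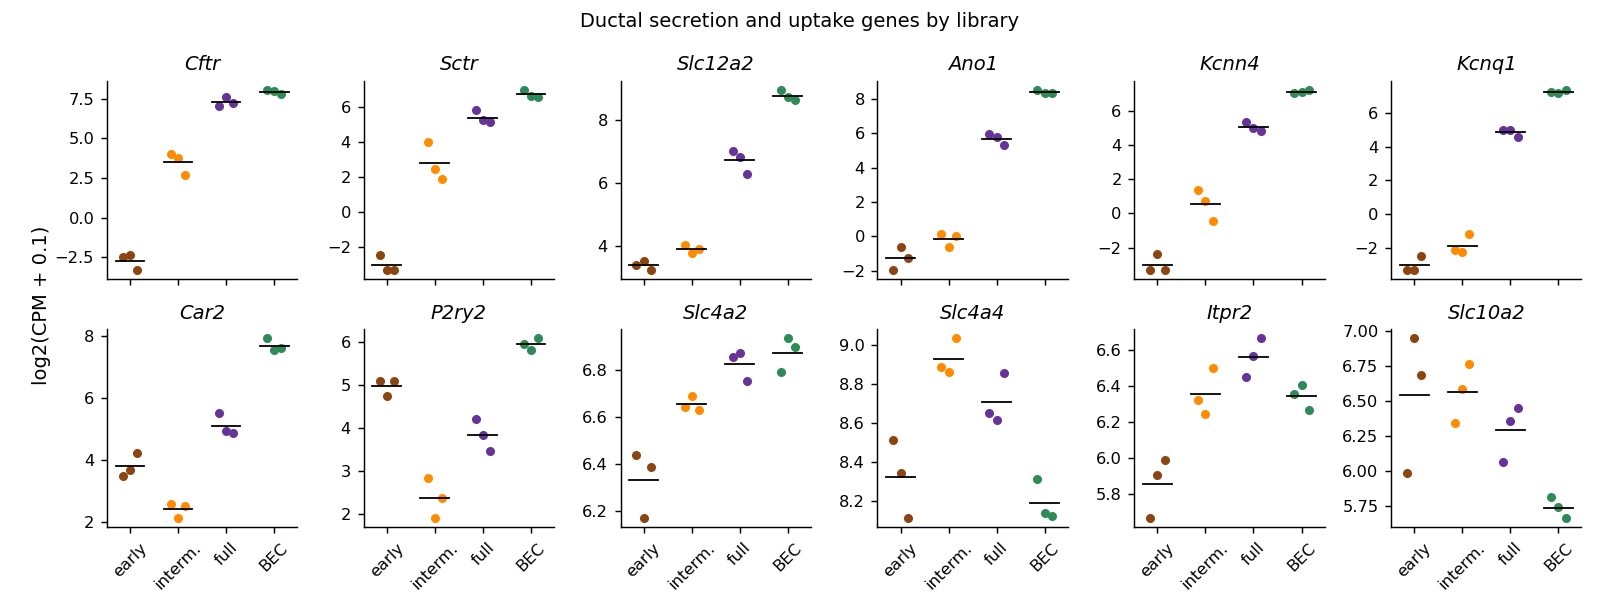
Levels of 12 secretion and uptake genes in every library of the 4 groups, as log2(CPM + 0.1), with the group mean as a line; each panel has its own scale. For Cftr, Sctr, Slc12a2, Ano1, Kcnn4, Kcnq1, Car2 and P2ry2 the intermediate points lie far below BEC, while for Slc4a2 and Itpr2 they lie near BEC, and for Slc4a4 and Slc10a2 above it.

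Uptake from bile was mixed. Of 11 tested genes of bile acid and glucose reabsorption (15 listed), 6 were higher in BEC (54.5%, against 26.3% of all genes) and 4 lower (36.4%, against 26.2% of all genes), with a median of 0.59. Slc5a1 (SGLT1), the sodium-glucose cotransporter, was at 106 ± 12.6 CPM in intermediate and 159.8 ± 10.1 CPM in BEC cells (log2 fold change 0.59, 95% interval 0.14 to 1.04, adjusted p 0.0295), against 11.5 CPM in the early group. Its call was lost without BEC replicate 1, BEC replicate 2, BEC replicate 3, intermediate replicate 1 or intermediate replicate 2 (adjusted p 0.0521 to 0.0928). Slc2a1 (GLUT1) was at 24.6 ± 1.22 CPM in intermediate and 81.4 ± 5.26 CPM in BEC cells (log2 fold change 1.72, SE 0.12, adjusted p 6.36e-08). Slc5a8, a monocarboxylate transporter, was at 0.126, 0.109 and 0 CPM in the intermediate libraries and 23.2, 18.1 and 18.0 CPM in the BEC libraries (log2 fold change 7.88, SE 0.69, adjusted p 1.71e-08), and the nucleoside transporter Slc28a3 had 0 reads in intermediate and 16.4, 10.7 and 8.54 CPM in BEC, at least 204-fold higher.

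The bile acid transporter genes Slc10a2, Abcc3 and Slc51b were lower in BEC. Slc10a2 (ASBT), the apical importer, was at 81.2, 95.8 and 109 CPM in the intermediate libraries and 56.1, 53.4 and 50.4 CPM in the BEC libraries. All intermediate libraries lay above all BEC ones (log2 fold change -0.84, SE 0.19, adjusted p 0.00228), and the early group was at 96.6 CPM. The basolateral exporter Abcc3 was at 374 ± 15.3 CPM in intermediate and 133 ± 15.3 CPM in BEC cells (log2 fold change -1.49, SE 0.11, adjusted p 7.98e-08), and Slc51b, a subunit of the OST exporter, was low in both groups, at 1.91 ± 0.500 CPM in intermediate and 0.109 ± 0.0245 CPM in BEC cells (log2 fold change -4.05, SE 0.55, adjusted p 5.89e-06). The exporter Abcc4 was within 2-fold and not called, at 94.9, 73.9 and 81.4 CPM in the intermediate libraries and 109, 101 and 105 CPM in the BEC libraries (log2 fold change 0.33, 95% interval 0.0072 to 0.65, adjusted p 0.0812). The groups of Abcc4 values did not overlap. Abcc4 was called higher in BEC with DESeq2 (adjusted p 0.0448), median-of-ratios factors (0.0493) and total counts only (0.00688). It was also called with the 6 libraries alone (0.0286), with a replicate block (0.0255) and without intermediate replicate 1 (0.0438).

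Most primary cilium genes tested were higher in BEC, a minority of them by more than 2-fold. Of 50 tested, 37 were higher in BEC (74%, against 26.3% of all genes) and 1 lower (2%, against 26.2% of all genes). In all, 24 (48%, against 50.3% of all genes) lay within 2-fold and 8 (16%, against 11.1%) were more than 2-fold higher (median 0.70). The polycystin genes Pkd1 and Pkd2, whose products sense flow on the cilium, were within 2-fold: Pkd2 was at 225, 207 and 215 CPM in the intermediate libraries and 261, 269.6 and 259 CPM in the BEC libraries (log2 fold change 0.29, 95% interval 0.13 to 0.44, adjusted p 0.00496), and Pkd1 had a log2 fold change of 0.078 (95% interval -0.17 to 0.33). Bicc1, an RNA-binding protein linked to cysts, was at 668 ± 32.6 CPM in intermediate and 787 ± 50.1 CPM in BEC cells (log2 fold change 0.24, 95% interval 0.011 to 0.46, adjusted p 0.0737), against 93.9 CPM in the early group. It was called higher in BEC with DESeq2 (adjusted p 0.00929), median-of-ratios factors (0.0333) and total counts only (0.00270).

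Transport along the cilium followed the same line: the kinesin gene Kif3a and the train genes Ift88, Ift140 and Ift52 had log2 fold changes of 0.90, 0.42, 0.70 and 0.32, all called and higher in BEC. The call for Ift52 was lost without BEC replicate 1, BEC replicate 2, intermediate replicate 1, intermediate replicate 2 or intermediate replicate 3 (adjusted p 0.0579 to 0.0898), and that for Ift88 without intermediate replicate 1 (adjusted p 0.0602). Pkhd1, fibrocystin, the gene of autosomal recessive polycystic disease, was at 189, 235 and 318 CPM in the intermediate libraries and 575, 657 and 693 CPM in the BEC libraries. The ranges did not overlap (log2 fold change 1.38, 95% interval 0.86 to 1.89, adjusted p 0.000313). Of the 8 members more than 2-fold higher in BEC, Nphp4, a transition zone gene, was at 0.251, 0.547 and 0 CPM in the intermediate libraries and 13.5, 17.0 and 16.7 CPM in the BEC libraries (log2 fold change 5.83, or 6.96 without intermediate replicate 2 and 5.24 without intermediate replicate 3, SE 0.58, adjusted p 8.40e-07). Trpv4, a calcium channel of the cholangiocyte cilium, was at 4.84, 2.57 and 3.28 CPM in the intermediate libraries and 78.5, 70.7 and 78.3 CPM in the BEC libraries (log2 fold change 4.42, SE 0.29, adjusted p 3.05e-08). Tmem231, another transition zone gene, was at 9.13 ± 1.23 CPM in intermediate and 31.0 ± 5.10 CPM in BEC cells (log2 fold change 1.77, SE 0.17, adjusted p 1.06e-06), and Rfx2, a factor of cilium genes, at 4.35 ± 1.06 CPM in intermediate and 16.0 ± 0.835 CPM in BEC cells (log2 fold change 1.87, SE 0.30, adjusted p 0.000152). The other 4, Hnf4g, Kif17, Bbs2 and Dzip1l, had log2 fold changes of 2.55, 1.93, 1.33 and 1.39. Of these Hnf4g is a nuclear receptor gene and not a cilium gene, but the list and its counts include it.

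Many mucosal secretion and defence genes were far higher in BEC. Of 24 tested genes (31 listed), 14 were more than 2-fold higher (58.3%, against 11.1% of all genes), 6 were lower (25%, against 26.2%) and 2 lay within 2-fold (8.33%, against 50.3% of all genes), with a median of 2.51. The 2 were the abundant secreted proteins Spp1 (osteopontin) and Clu (clusterin). Spp1 was at 11523, 8544 and 9499 CPM in the intermediate libraries and 14465, 11051 and 10877 CPM in the BEC libraries, with overlapping ranges (log2 fold change 0.30, 95% interval -0.22 to 0.82, adjusted p 0.321). Clu was at 29278, 23857 and 22989.7 CPM in the intermediate libraries and 26543, 22494 and 20580.0 CPM in the BEC libraries, also overlapping (log2 fold change -0.13, 95% interval -0.48 to 0.22, adjusted p 0.532).

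Several genes of this list, among them Muc1, Dmbt1 and Muc20, were at or near 0 in intermediate cells. Muc1, the membrane mucin of ducts, was at 0.879, 0.109 and 0.339 CPM in the intermediate libraries and 399, 266 and 281 CPM in the BEC libraries (log2 fold change 9.51, or 10.42 without intermediate replicate 1, SE 0.60, adjusted p 6.02e-09). Dmbt1, a secreted scavenger protein of mucosae, had 0 reads in intermediate and 126, 172 and 223 CPM in BEC, at least 3017-fold higher. Muc20 likewise had 0 reads against 19.0, 9.22 and 13.6 CPM, at least 240.4-fold higher. The glycosyltransferase genes Fut2, B3gnt3 and Galnt3, which build mucin sugars, were also higher in BEC. Fut2 was at 0.251, 0 and 0.0565 CPM in the intermediate libraries and 68.0, 63.5 and 56.6 CPM in the BEC libraries (log2 fold change 9.24, or 10.82 without intermediate replicate 1 and 8.65 without intermediate replicate 2, SE 0.73, adjusted p 2.06e-09). B3gnt3 and Galnt3 had log2 fold changes of 7.09 and 4.89 (6.08 without intermediate replicate 1). Lcn2, an iron-binding defence protein that injured hepatocytes also secrete, was present in both groups at 258 ± 133 CPM in intermediate and 1381 ± 317 CPM in BEC cells (log2 fold change 2.42, SE 0.34, adjusted p 6.58e-05). Pigr, the receptor that carries IgA into bile, was lower in BEC, at 234 ± 34.2 CPM in intermediate and 34.2 ± 6.10 CPM in BEC cells (log2 fold change -2.78, SE 0.18, adjusted p 4.43e-08). So was the trefoil factor Tff3, at 5.96 ± 1.14 CPM in intermediate and 1.09 ± 0.229 CPM in BEC cells (log2 fold change -2.44, SE 0.30, adjusted p 9.09e-06).

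Genes of the Notch pathway were expressed in both groups. Notch ligands on a neighbouring cell release the receptor's inner part, which with Rbpj switches on Hes and Hey genes. Of 26 tested genes (31 listed), 12 lay within 2-fold (46.2%, against 50.3% of all genes), 14 were called higher in BEC (53.8%, against 26.3% of all genes) and 6 lower (23.1%, against 26.2% of all genes), with a median of 0.54. The lower ones were 3 without intermediate replicate 3, 4 with DESeq2, with median-of-ratios factors and without BEC replicate 3 or intermediate replicate 2, and 2 with total counts only. The ligand Jag1 was at 202, 214 and 229 CPM in the intermediate libraries and 291, 338 and 381 CPM in the BEC libraries, within 2-fold though all BEC libraries were higher (log2 fold change 0.65, 95% interval 0.33 to 0.97, adjusted p 0.00235), and the early group stood at 16.3 CPM. Among other ligands, Jag2 was at 10.5, 5.36 and 2.37 CPM in the intermediate libraries and 15.6, 16.1 and 17.6 CPM in the BEC libraries (log2 fold change 1.44, or 2.08 without intermediate replicate 1, SE 0.34, adjusted p 0.00286). Dll1 was at 5.81 ± 1.07 CPM in intermediate and 32.2 ± 1.87 CPM in BEC cells (log2 fold change 2.47, SE 0.19, adjusted p 1.77e-07). The receptor Notch2 was at 271, 272 and 306 CPM in the intermediate libraries and 306, 290.1 and 286 CPM in the BEC libraries, with overlapping ranges (log2 fold change 0.055, 95% interval -0.15 to 0.26, adjusted p 0.654). Notch1 was not called (log2 fold change -0.54, 95% interval -1.12 to 0.043, adjusted p 0.113).

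Among Notch effectors and targets, Rbpj was within 2-fold (log2 fold change 0.24, 95% interval 0.052 to 0.43, adjusted p 0.0334), its call lost without BEC replicate 1, BEC replicate 2, intermediate replicate 1 or intermediate replicate 2 (adjusted p 0.0736 to 0.115), while the coactivator Maml2 was at 4.52, 2.13 and 1.87 CPM in the intermediate libraries and 58.8, 55.5 and 48.4 CPM in the BEC libraries (log2 fold change 4.27, SE 0.25, adjusted p 1.26e-08). Hes1, the main target in ducts, varied within both groups, at 129.9, 251 and 284 CPM in the intermediate libraries and 229, 363 and 419 CPM in the BEC libraries, and replicate 1 was lowest in each. It was not called (log2 fold change 0.60, 95% interval -0.15 to 1.36, adjusted p 0.169). With a replicate block it was called higher in BEC (log2 fold change 0.64, adjusted p 0.00011). The targets Heyl and Nrarp and the glycosyltransferase Lfng were low in both groups and higher in BEC, with log2 fold changes of 2.44, 1.71 and 2.58. Psen2, a gamma-secretase subunit, was lower in BEC, at 81.3 ± 5.22 CPM in intermediate and 33.4 ± 2.34 CPM in BEC cells (log2 fold change -1.28, SE 0.10, adjusted p 1.92e-07), while Ncstn of the same enzyme was within 2-fold.

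Targets of YAP, the Hippo pathway coactivator that binds DNA through TEAD factors, were expressed in both groups but unevenly. Of 21 tested (22 listed), 14 were higher in BEC (66.7%, against 26.3% of all genes) and 3 lower (14.3%, against 26.2% of all genes). Of the same 21 genes, 5 lay within 2-fold (23.8%, against 50.3% of all genes) and 9 were more than 2-fold higher (42.9%, against 11.1% of all genes), with a median of 0.90. Ccn2 (CTGF) was at 299, 224 and 244 CPM in the intermediate libraries and 827, 617 and 618 CPM in the BEC libraries. All BEC libraries exceeded all intermediate ones (log2 fold change 1.43, SE 0.17, adjusted p 1.21e-05), and the early group was at 8.61 CPM. Ccn1 (CYR61), the other classical target, went the other way, at 1112, 1932 and 2234 CPM in the intermediate libraries and 573, 1015 and 1219.8 CPM in the BEC libraries. The ranges overlapped, replicate 1 was lowest in each group, and the call (log2 fold change -0.91, SE 0.34, adjusted p 0.0388) was not made by DESeq2 (adjusted p 0.0543) or with total counts (adjusted p 0.1), and was lost without BEC replicate 1, BEC replicate 2, intermediate replicate 2 or intermediate replicate 3 (adjusted p 0.068 to 0.147).

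Other YAP targets ranged widely. Amotl1, a scaffold that holds YAP, was at 7.91, 4.93 and 3.00 CPM in the intermediate libraries and 144, 155 and 154 CPM in the BEC libraries (log2 fold change 4.85, SE 0.31, adjusted p 3.29e-08), and its relative Amotl2 at 146 ± 21.0 CPM in intermediate and 234 ± 35.7 CPM in BEC cells (log2 fold change 0.68, SE 0.18, adjusted p 0.00517). Ankrd1 was at 99.1 ± 40.7 CPM in intermediate and 460.1 ± 145 CPM in BEC cells (log2 fold change 2.21, SE 0.41, adjusted p 0.000583), against 2.39 CPM in the early group. The LIM protein gene Ajuba was at 177 ± 38.1 CPM in intermediate and 179.8 ± 31.1 CPM in BEC cells, with overlapping ranges (log2 fold change 0.024, 95% interval -0.36 to 0.41, adjusted p 0.922). Nt5e (CD73) was lower in BEC, at 10.5 ± 3.21 CPM in intermediate and 1.59 ± 0.329 CPM in BEC cells (log2 fold change -2.72, SE 0.35, adjusted p 1.56e-05). The TEAD genes Tead1 and Tead4 themselves were within 2-fold (log2 fold changes 0.31 and 0.064).

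Promoters of YAP targets that hold the TEAD letters are shown here for 4 genes that did not move alike. The letters ACATTCC were searched on both strands in RefSeq windows of 300 bases (250 before to 50 after an annotated start, build GRCm38.p6, whereas the counts were made on GRCm39). Of the 16210 genes tested, 11575 have a window. The letters occur in 3.85% of all 32851 windows and in 3.00% of the 14804 windows of tested genes. Among the latter the share was 3.16% for genes more than 2-fold higher in BEC, 3.70% for those more than 2-fold lower, 3.74% for those whose interval crosses 2-fold and 2.55% for those within 2-fold. Ajuba lay within 2-fold, and Amotl2 and Axl were higher in BEC. Ccn1 was called lower in BEC, a call lost with DESeq2, with total counts only and without some single libraries. The intervals of Ccn1 and Amotl2 crossed 2-fold. A stretch of each window is shown, capitals mark the letters on either strand, positions count from the start, and a match is no proof of binding.
Ccn1 (chr3:145650058-145650114, minus strand, letters at -104): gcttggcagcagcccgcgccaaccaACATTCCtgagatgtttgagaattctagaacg
Ajuba (chr14:54577817-54577873, minus strand, letters at -187): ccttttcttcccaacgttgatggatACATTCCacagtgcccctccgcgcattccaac
Amotl2 (chr9:102717713-102717769, plus strand, letters at -66): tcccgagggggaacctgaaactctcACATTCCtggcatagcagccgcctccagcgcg
Axl (chr7:25788935-25788983, minus strand, letters at -233): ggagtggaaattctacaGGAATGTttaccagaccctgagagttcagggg

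Genes of the epithelial basement membrane differed by chain. Of 25 tested (26 listed), 17 were higher in BEC (68%, against 26.3% of all genes) and 3 lower (12%, against 26.2% of all genes). Of the former 12 were more than 2-fold higher (48%, against 11.1% of all genes), and 2 of the 25 (8%, against 50.3% of all genes) lay within 2-fold (median 1.23). Lama3 and Lamb3, chains of the hemidesmosome laminin that Itgb4 and Itga6 bind, were both far higher in BEC. Lama3 was at 0.126, 0.219 and 0.113 CPM in the intermediate libraries and 95.9, 108 and 92.8 CPM in the BEC libraries (log2 fold change 9.27, SE 0.61, adjusted p 1.86e-10). Lamb3 was at 1.44, 1.26 and 0.735 CPM in the intermediate libraries and 241, 252 and 236 CPM in the BEC libraries (log2 fold change 7.73, SE 0.28, adjusted p 1.13e-10). Intermediate cells held 0.154% and 0.472% of the BEC level of these chains.

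The chains Lama5, Lamb2 and Lamc1, of another epithelial laminin, were nearer. Lama5 was at 469 ± 77.4 CPM in intermediate and 992 ± 15.8 CPM in BEC cells (log2 fold change 1.08, SE 0.17, adjusted p 0.00014), Lamc1 at a log2 fold change of 0.78 (adjusted p 2.23e-05), and Lamb2 at 192 ± 10.4 CPM in intermediate and 203 ± 12.3 CPM in BEC cells (log2 fold change 0.085, 95% interval -0.16 to 0.33, adjusted p 0.568), against 18.3 CPM in the early group. Agrin (Agrn), a heparan sulphate proteoglycan, was within 2-fold (1482 ± 34.0 CPM in intermediate and 2037 ± 98.5 CPM in BEC cells, log2 fold change 0.46, 95% interval 0.24 to 0.67, adjusted p 0.00156), while perlecan (Hspg2) was at 39.1 ± 6.57 CPM in intermediate and 526 ± 50.7 CPM in BEC cells (log2 fold change 3.75, SE 0.22, adjusted p 2.76e-08). Among collagen IV chains, Col4a1 and Col4a2 differed by 1.02 and 1.59 and Col4a3 and Col4a4 by 5.88 (6.69 without intermediate replicate 3) and 4.52 (5.42 without intermediate replicate 3) on the log2 scale.

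The nidogens, which link laminin to collagen IV, were lower in BEC: Nid1 was at 453 ± 74.7 CPM in intermediate and 48.8 ± 4.42 CPM in BEC cells (log2 fold change -3.21, SE 0.13, adjusted p 6.27e-10) and Nid2 at 16.2 ± 1.39 CPM in intermediate and 3.96 ± 0.603 CPM in BEC cells (log2 fold change -2.03, SE 0.18, adjusted p 4.56e-07). Markers of stromal cells, which also make matrix, were measured beside these genes. The fibroblast collagen Col1a1 was at 9.48, 16.6 and 33.0 CPM in the intermediate libraries and 15.7, 15.3 and 27.2 CPM in the BEC libraries, with overlapping ranges and an adjusted p of 0.969. Of 13 stromal markers tested, 1 was higher in BEC (Ecm1) and 1 lower (Reln, 31.2, 44.9 and 60.8 CPM in intermediate and 10.6, 6.24 and 9.996 CPM in BEC libraries). Their part in the basement membrane result was not tested.

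Signals that duct cells send during the ductular reaction, the spread of ducts with inflammation and fibrosis around them, were higher in BEC more often than lower. Of 38 tested (40 listed), 21 (55.3%, against 26.3% of all genes) were higher in BEC and 10 (26.3%, against 26.2%) lower, and 7 (18.4%, against 50.3%) lay within 2-fold (median 0.74). The lower ones were 6 without BEC replicate 1 and 5 with total counts only. Wnt7b, a Wnt ligand, was at 0.126, 0.0547 and 0.113 CPM in the intermediate libraries and 127, 165 and 170.0 CPM in the BEC libraries (log2 fold change 10.54, SE 0.80, adjusted p 1.13e-10). Among chemokines, Cxcl5, which attracts neutrophils, was at 6.78, 2.79 and 1.64 CPM in the intermediate libraries and 479, 453 and 399 CPM in the BEC libraries (log2 fold change 6.91, or 7.63 without intermediate replicate 1, SE 0.38, adjusted p 1.28e-08), and Cxcl2 at 1.82 ± 0.684 CPM in intermediate and 51.5 ± 16.3 CPM in BEC cells (log2 fold change 4.83, SE 0.34, adjusted p 5.35e-08). Cxcl1 of the same family was within 2-fold, at 98.5, 127 and 159.8 CPM in the intermediate libraries and 85.9, 113 and 125 CPM in the BEC libraries, with overlapping ranges (log2 fold change -0.25, 95% interval -0.81 to 0.32, adjusted p 0.458).

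Growth factors and receptors of this reaction were spread in both directions. Vcam1, an adhesion molecule for leukocytes, was at 154 ± 34.9 CPM in intermediate and 828 ± 42.7 CPM in BEC cells (log2 fold change 2.43, SE 0.14, adjusted p 1.66e-08), and the platelet-derived growth factor gene Pdgfb at 78.3 ± 8.26 CPM in intermediate and 174 ± 32.2 CPM in BEC cells (log2 fold change 1.15, SE 0.14, adjusted p 1.26e-05). Edn1, endothelin, was at 0.958 ± 0.558 CPM in intermediate and 24.98 ± 5.15 CPM in BEC cells (log2 fold change 4.67, SE 0.46, adjusted p 8.91e-07), and the prostaglandin synthase gene Ptgs2 had a log2 fold change of 6.07. Tnfrsf12a (Fn14), the TWEAK receptor that drives ductular proliferation, was higher in intermediate cells, at 194, 203 and 166 CPM in the intermediate libraries and 74.1, 96.4 and 105 CPM in the BEC libraries (log2 fold change -1.03, SE 0.21, adjusted p 0.000876). Vegfc and Fgf1 were also lower in BEC, with log2 fold changes of -4.44 (-5.04 without BEC replicate 3) and -2.10, while Vegfa was higher by 1.30. Tgfa and Nfkb2 were within 2-fold.

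Cell cycle genes were uniformly lower in intermediate cells. Of 30 tested, 30 were higher in BEC (28 or 29 in fits that left out 1 library), against 26.3% of all genes, and 21 by more than 2-fold, against 11.1%, with a median log2 fold change of 2.7. Mki67, the proliferation marker, was at 4.40, 2.74 and 7.69 CPM in the intermediate libraries and 81.8, 78.1 and 106 CPM in the BEC libraries (log2 fold change 4.17, SE 0.45, adjusted p 4.60e-06), and intermediate cells held 5.57% of the BEC level. Top2a, the mitotic topoisomerase, was at 4.33, 3.67 and 6.56 CPM in the intermediate libraries and 67.8, 65.2 and 86.2 CPM in the BEC libraries (log2 fold change 3.91, SE 0.48, adjusted p 1.77e-05). The mitotic genes Cenpf, Aurkb and Ccnb1 had log2 fold changes of 4.33 (5.32 without intermediate replicate 3), 3.36 and 3.19 (3.93 without intermediate replicate 3). The replication genes Mcm2, Mcm6 and Pcna had 1.60, 0.57 and 1.07, and the call for Mcm6 was lost without BEC replicate 3, intermediate replicate 1 or intermediate replicate 2 (adjusted p 0.0524 to 0.0684). The early group stood at 21.4 CPM of Mki67 and the full group at 85.7.

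Hepatocyte functions were still expressed in intermediate cells. Of 48 plasma protein genes, 48 were lower in BEC, against 26.2% of all genes, and 44 by more than 2-fold (91.7%, against 7.75% of all genes), with a median of -3.41. Of 23 tested genes of bile acid synthesis and export (24 listed), 22 were lower (95.7%, against 26.2% of all genes, median -2.79). Of 32 genes of nitrogen and glucose metabolism 30 were lower (93.8%, against 26.2% of all genes, median -2.77). Alb, albumin, was at 10484, 13323 and 14044 CPM in the intermediate libraries and 1649, 1420.4 and 1886 CPM in the BEC libraries (log2 fold change -2.93, SE 0.17, adjusted p 1.40e-08), against 73433 CPM in the early group. Vtn, vitronectin, was at 1876 ± 172 CPM in intermediate and 55.6 ± 21.7 CPM in BEC cells (log2 fold change -5.08, SE 0.22, adjusted p 3.37e-09). F12, a clotting factor, was at 439 ± 51.1 CPM in intermediate and 8.73 ± 3.78 CPM in BEC cells (log2 fold change -5.65, SE 0.24, adjusted p 2.37e-09). Complement C3 was the plasma protein gene within 2-fold, at 12232 ± 1019 CPM in intermediate and 8250.1 ± 398 CPM in BEC cells (log2 fold change -0.57, 95% interval -0.84 to -0.30, adjusted p 0.00178).

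Among transporters, the canalicular bile salt pump Abcb11 was at 32.8, 64.5 and 53.9 CPM in the intermediate libraries and 3.56, 6.28 and 8.90 CPM in the BEC libraries (log2 fold change -3.01, SE 0.33, adjusted p 5.13e-06), and Slc10a1 (NTCP), the sinusoidal importer, at 22.3 ± 5.00 CPM in intermediate and 3.50 ± 1.36 CPM in BEC cells (log2 fold change -2.67, SE 0.24, adjusted p 6.50e-07). Abcb4, which exports phospholipid into bile, was at 192 ± 7.79 CPM in intermediate and 6.10 ± 1.33 CPM in BEC cells (log2 fold change -4.97, SE 0.17, adjusted p 2.53e-10). Cps1, which begins the urea cycle, was at 321, 638 and 662 CPM in the intermediate libraries and 37.3, 63.4 and 117 CPM in the BEC libraries, lowest in replicate 1 of each group (log2 fold change -2.89, SE 0.39, adjusted p 5.87e-05), and the gluconeogenic gene Fbp1 at 194 ± 26.9 CPM in intermediate and 9.67 ± 4.30 CPM in BEC cells (log2 fold change -4.32, SE 0.25, adjusted p 2.21e-08). The early group stood at 535, 259.9 and 5667 CPM of Abcb11, Slc10a1 and Cps1.

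Hepatocyte transcription factors did not all follow. Of 19 tested (20 listed), 15 were lower in BEC (78.9%, against 26.2% of all genes), 12 by more than 2-fold (63.2%, against 7.75% of all genes), with a median of -2.08. Onecut3, low in both groups, was higher, with a log2 fold change of 3.87 (8.08 without intermediate replicate 1 and 3.27 without intermediate replicate 2), and 4 were within 2-fold. Hnf4a, the central hepatocyte regulator, was at 584, 683 and 644 CPM in the intermediate libraries and 105, 141 and 145 CPM in the BEC libraries (log2 fold change -2.29, SE 0.12, adjusted p 5.07e-09). Creb3l3, a liver-specific factor of lipid metabolism, was at 258, 274 and 258 CPM in the intermediate libraries and 9.29, 8.94 and 10.5 CPM in the BEC libraries (log2 fold change -4.78, SE 0.10, adjusted p 2.12e-11). Ppara and Foxa3 had log2 fold changes of -3.42 and -2.56. Those within 2-fold included Nr5a2, Foxa1 and Prox1, with log2 fold changes of 0.062, -0.19 and -0.35. The call for Prox1 (adjusted p 0.0406) was lost with DESeq2 (adjusted p 0.0661), with median-of-ratios factors (0.0759), with total counts only (0.370) and in 5 of 6 fits that left out 1 library (adjusted p 0.0629 to 0.179), all but the one without intermediate replicate 2.

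Among called genes that reached 10 CPM in one group and whose replicates did not overlap, the rule took the 10 with the largest fitted log2 fold changes in BEC, which included Dmbt1, Esrp1 and Cldn8 and, from no list, Atp10b, Ildr1, Pof1b, Mmp7, Macc1 and Rasef. For genes without reads in a group the fitted value has no fixed size, so the choice gives no order, and other genes named above have larger fold changes than some of these lower bounds. Mmp7, a matrix metalloproteinase of duct epithelium in injury, was at 0.377, 0.0547 and 0 CPM in the intermediate libraries and 770.3, 616 and 568 CPM in the BEC libraries, with 7 reads in all in the former (log2 fold change 12.16, or 14.20 without intermediate replicate 1, 95% interval 9.96 to 14.37, adjusted p 4.14e-09). Ildr1, a protein of tricellular junctions, had 0 reads in intermediate and 60.9, 58.8 and 60.5 CPM in BEC, at least 1039-fold higher. Macc1, a regulator of Met expression, had 0 against 31.2, 30.2 and 30.4 CPM, at least 529-fold higher. Atp10b, a phospholipid flippase, was at least 1183-fold higher, the actin-binding Pof1b at least 676-fold and Rasef at least 478-fold.

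In the other direction the rule named Spink1, Irx3, Car14, Inhbc, Acnat2, Igfbp1, Kcnj8, F12, Meg3 and Ddc. Spink1, a trypsin inhibitor, was at 18.3, 14.3 and 20.7 CPM in the intermediate libraries and 0.0962, 0.140 and 0.0456 CPM in the BEC libraries (log2 fold change -7.47, SE 0.77, adjusted p 1.63e-08). Car14, a membrane carbonic anhydrase of hepatocytes, was at 43.1, 52.4 and 62.8 CPM in the intermediate libraries and 0.385, 0.652 and 1.46 CPM in the BEC libraries (log2 fold change -5.96, or -6.65 without BEC replicate 3, SE 0.35, adjusted p 3.51e-09). Irx3, a homeobox factor, was at 26.6, 30.8 and 41.4 CPM in the intermediate libraries and 0.192, 0.465 and 0.867 CPM in the BEC libraries, and Kcnj8, a potassium channel, at 24.2, 22.7 and 19.4 CPM in the intermediate libraries and 0.529, 0.279 and 0.456 CPM in the BEC libraries. The early group stood at 7.15 CPM of Irx3 and 6.03 CPM of Kcnj8. Igfbp1 and Meg3 varied within the intermediate group, at 161, 43.6 and 48.5 CPM and 40.9, 6.79 and 16.7 CPM, with replicate 1 highest for both. Their log2 fold changes were -5.79 (-4.92 without intermediate replicate 1) and -5.65 (-4.78 without intermediate replicate 1). Acnat2 has a close paralogue, so its counts are uncertain.

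Most markers of other cell types were low, with exceptions in both groups. Of 10 T and NK cell markers none was above 1 CPM in any of the 6 libraries, and the 10 neutrophil markers summed to between 0.452 and 1.44 CPM. The B cell sum was 1.09 to 2.57 CPM in intermediate and 16.8 to 47.0 CPM in BEC libraries, carried by Igkc (2.07, 0.657 and 1.30 against 42.9, 15.5 and 45.1 CPM). Ighm (0, 0 and 0 against 0.385, 0.372 and 0.867 CPM) and Fcer2a (0, 0.0547 and 0 against 0.481, 0.512 and 0.183 CPM) were under the filter on low counts, and Ms4a1 and Pax5 had 0 reads. The macrophage sum was 99.0 to 140.1 CPM in intermediate and 501 to 524 CPM in BEC, carried by Cd14 (109.5, 60.9 and 62.7 against 390.3, 349 and 344 CPM) and Csf1r (24.6, 24.6 and 24.5 against 128, 133 and 119 CPM). Of 11 macrophage markers tested, these 2 were higher in BEC and 0 lower, against 26.3% and 26.2% of all genes. The Kupffer cell marker Clec4f was at 0.628, 1.37 and 1.70 CPM in the intermediate libraries and 0.866, 2.51 and 7.67 CPM in the BEC libraries and Lyz2 at 0.628, 2.74 and 4.18 CPM in the intermediate libraries and 0.962, 3.35 and 7.62 CPM in the BEC libraries, neither called (adjusted p 0.0801 and 0.491). BEC replicate 3 was highest of the 6 libraries for both, and also for C1qa (4.56 CPM), C1qc (4.15 CPM), Vsig4 (2.83 CPM), Marco (2.69 CPM), Ptprc (1.19 CPM) and Adgre1 (1.05 CPM). Cd163 and Timd4 were under 1 CPM in all 6 libraries.

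The mesothelial sum was 3.14 to 4.27 CPM in intermediate and 225 to 249 CPM in BEC, carried by Msln (0.691, 0.985 and 0.961 against 195, 186 and 212 CPM) and Gpm6a. Upk3b, Upk1b, Wt1, Lrrn4 and Muc16 were under 1 CPM in all 6 libraries, and Krt5, also under 1 CPM, was lower in BEC (0.565, 0.547 and 0.679 against 0, 0 and 0.0456 CPM, adjusted p 0.000156). The tuft and neuroendocrine sum was 6.45 to 10.7 CPM in intermediate and 75.3 to 112 CPM in BEC, mostly from Dclk1 (5.53, 9.85 and 5.54 against 73.9, 99.1 and 107 CPM). All 4 markers of this list that were tested were higher in BEC, against 26.3% of all genes. Besides Dclk1 these were Trpm5 (0.314, 0.109 and 0.339 against 0.626, 1.12 and 2.60 CPM, adjusted p 0.00355), Avil (0.377, 0.383 and 0.452 against 0.626, 1.40 and 1.19 CPM, adjusted p 0.0209) and Insm1 (0, 0.109 and 0 against 0, 0.698 and 1.37 CPM, adjusted p 0.0285). The call for Avil was lost without BEC replicate 2, BEC replicate 3, intermediate replicate 1, intermediate replicate 2 or intermediate replicate 3 (adjusted p 0.0518 to 0.102), and that for Insm1 without BEC replicate 2, BEC replicate 3, intermediate replicate 1 or intermediate replicate 3 (adjusted p 0.0541 to 0.118). The other 4 markers, Pou2f3, Chga, Chgb and Syp, were under 1 CPM in all 6 libraries. The endothelial sum was higher in intermediate, 26.9 to 37.4 CPM against 11.5 to 18.9 CPM, where Stab1 (15.8, 18.7 and 14.9 against 2.50, 3.35 and 5.61 CPM) and Stab2 were called lower in BEC. The stromal sum overlapped, 1857 to 2547 CPM against 1738 to 2317 CPM, and most of it was Rgs5 (2462, 1729 and 1713 against 2190.0, 1971 and 1588 CPM). Within that list Reln was lower in BEC (31.2, 44.9 and 60.8 against 10.6, 6.24 and 9.996 CPM, adjusted p 8.96e-05) and Ecm1 higher, and Col3a1 reached 48.6 CPM in intermediate and 36.1 CPM in BEC libraries. The erythroid and platelet sum overlapped as well, 5.75 to 8.03 CPM against 6.30 to 8.22 CPM, but its members moved in opposite directions. The platelet gene Pf4 was higher in BEC (0.0628, 0 and 0.396 against 4.23, 4.28 and 4.11 CPM, adjusted p 1.44e-05) and the erythroid gene Alas2 lower (1.95, 2.46 and 3.00 against 0.385, 0.838 and 1.23 CPM, adjusted p 0.00635). The part of these cells in the genes above was not tested.

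**Figure D5:**
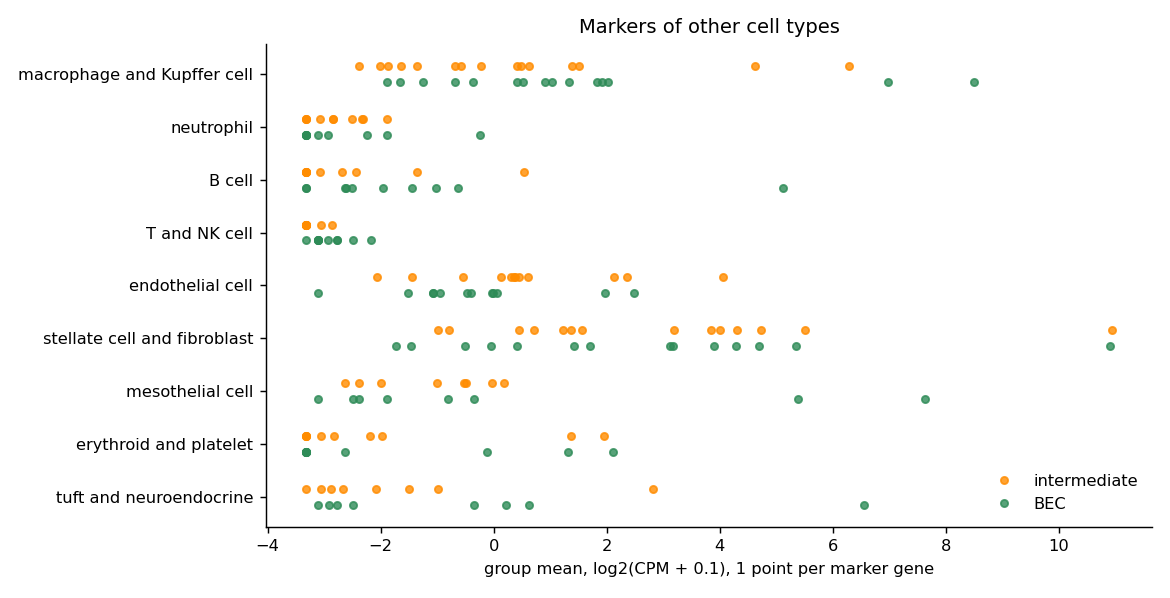
Group mean of each marker of 9 other cell types as log2(CPM + 0.1), 1 point per gene, for intermediate and BEC cells. Cd14, Csf1r, Igkc, Msln, Gpm6a and Dclk1 stand to the right in BEC while the other markers of their cell types lie further left.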

How the data were processed

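The series holds 12 RNA-seq libraries, 3 in each of 4 groups of sorted cells, grouped by their titles. The authors deposited raw counts per gene symbol. STAR 2.7.10b, featureCounts 2.0.1, DESeq2 and the build GRCm39 are named in the submitters' processing notes, without their settings. Strand setting and treatment of reads shared by similar or overlapping genes are not given in the sources used here, so such genes are uncertain. The deposited normalised table was not used. The table lists 53599 genes.

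Tools were R 4.3.3, edgeR 4.0.16, limma 3.58.1, DESeq2 1.42.0 and Python 3.11.15. filterByExpr by group kept 16210 genes with over 99.8% of the counts of each library. All 12 libraries entered 1 quasi-likelihood fit with TMM factors and 1 term per group, without a replicate term. Genes were called at a Benjamini-Hochberg adjusted p under 0.05. The 95% interval used the fit's standard error and was compared with 2-fold. Against a group with 0 reads, a fold is a lower bound with 3 counts over the group. With 1 to 3 reads it is a ratio with an exact counting interval. Floors and such intervals cover counting error only: reads carried no molecular identifiers that the labels mention. At these depths 3 counts were 0.137 to 0.188 CPM per library. The common biological coefficient of variation was 14.8%.

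The comparison, the 17 gene lists, the markers and the tests were chosen with earlier results of these data known. The rule for named genes took 43 key genes, the 10 largest differences in each direction at 10 CPM or more without overlap, in each list up to 4 called members with the largest change and up to 3 within 2-fold with the highest level, and members at the floor in every intermediate library with at least 5 CPM in BEC, 143 genes in all. A further 4 genes that met it are not reported here. Other members are given as examples from the whole lists, chosen after their values were seen. On simulated counts for this comparison over 16210 genes, 97% of 200 genes changed 4-fold were called, 8.06% of 211 calls were false, 0 changed genes fell within 2-fold, and intervals covered the true value for 95.2% of genes. The simulation changed far fewer genes than were called here, equally up and down, with independent replicates. These rates therefore do not measure the errors of the calls above. Alternatives covered DESeq2, other scalings, filters, a 2-fold test, a 1.5-fold margin, the 6 libraries alone, a replicate block and leaving out each library.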

Additional observations from a re-analysis of the deposited data

How the results depend on the processing

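Over the 143 named genes, 1501 of the recomputed log2 fold changes kept direction and call, 21 gained a call, 32 lost one and 19 changed sign. Against a minimum 2-fold change 3202 genes were called (1878 higher, 1324 lower), fewer by construction, and 4678 genes lay within a 1.5-fold margin. Leaving out 1 library gave 7604 to 8083 calls (3852 to 4113 higher, 3746 to 4010 lower) and 7665 to 7963 genes within 2-fold. Intervals were not recomputed with DESeq2, the 2-fold test or the 1-count filter. The small counts of members against their list's trend moved. With total counts only, lower members were 1 for adhesion, 2 for tight junction, 0 for cilium, 2 for Notch and 5 for ductular signals, and 2 hepatocyte factors were higher. With the 6 libraries alone, lower members were 1 for adhesion and 3 for cilium, and 0 bile acid synthesis genes were higher. Median-of-ratios factors left 1 lower adhesion gene. Leaving out 1 library, lower members ranged from 1 to 2 for ductal factors (2 without BEC replicate 3 or intermediate replicate 1), 1 to 2 for adhesion (1 without BEC 1 or 3 or intermediate 1 or 2, where Ncam1 lost its call), 0 to 2 for cilium (0 without intermediate 1, 2 without intermediate 2 or 3), 3 to 5 for Notch (3 without intermediate 3) and 6 to 9 for ductular signals (6 without BEC 1). Higher bile acid synthesis genes ranged from 0 to 1 (0 without BEC 1 or intermediate 1 or 2, where Atp8b1 lost its call).

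Genes near 0 changed sign, none of them called. With total counts only these were Itpr2 (0.19), Ganab (0.063), Clu (0.072), Nfkb2 (0.034), Tgfa (0.052) and Foxa1 (0.016). Itpr2 also did so with DESeq2 and median-of-ratios factors (both 0.035), without BEC 3 (0.019) and without intermediate 3 (0.056), and was as low as -0.071 without another library. Cgnl1 did with the 6 libraries (-0.00088), without BEC 2 (-0.012) and without intermediate 2 (-0.065); with 1 library left out it ranged up to 0.076. Ajuba did without BEC 2 (-0.065), BEC 3 (-0.037), intermediate 1 (-0.12) and intermediate 3 (-0.0021), and reached 0.20 without intermediate 2. Nfkb2 did without BEC 1 (0.0066, and -0.31 without BEC 3), and Nr5a2 without intermediate 2 (-0.015, and 0.099 without intermediate 3). The Ccn1 call was lost without BEC 1 (-0.66), BEC 2 (-0.98), intermediate 2 (-0.84) and intermediate 3 (-0.70). That of Slc4a2 was lost without BEC 2 (0.19), BEC 3 (0.21), intermediate 1 (0.21), intermediate 2 (0.24) and intermediate 3 (0.21). The call of Sox9 was gained without BEC 1 (0.44) and with total counts (0.52). With total counts only, Cldn3 (0.33), Notch2 (0.26), Dsp (0.32) and Nr5a2 (0.26) were also called. The cause was not tested.

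Labels number the replicates of each group 1 to 3. Across genes, libraries that share a number had deviations from their group means with r of 0.175, 0.084 and 0.175, so the numbers were not taken to pair the libraries, although every library correlated best with its own number. With a replicate block 9045 genes were called (4554 higher, 4491 lower), lower members were 3 for ductal factors and 3 for cilium, and Hes1 (adjusted p 0.00011), Sox9 (adjusted p 0.0219), Krt18, Aqp1 and Abcc4 gained calls. At these depths 3 counts were 0.137 to 0.188 CPM per library, and a gene without reads in a group has only a lower bound of its fold.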
